A study of Mus musculus with 8 samples.

Results

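Transcripts were compared for 38 genes of DNA break and crosslink repair, mismatch repair and the DNA damage checkpoint in primary murine pancreatic ductal adenocarcinoma (PDAC) lines exposed to trametinib, an allosteric inhibitor of MEK1 and MEK2 (MEKi). The genes were taken by symbol from a table of 34478 genes, all 38 were found, and all 38 passed the filter for low values that left 15888 genes to test. The 4 lines, #1, #3, #5 and #10, were grown from pancreatic tumours of mice engineered with alleles that include Ptf1a wt/Cre and Trp53 loxP/loxP, so that treated and control cells alike carried Cre driven from the Ptf1a locus and conditional Trp53 alleles. Each line gave 1 library after 48 h of trametinib at its own IC50 and 1 DMSO control library, 4 libraries per treatment, from polyA RNA and a stranded kit. Each line was sampled once per treatment, so the spread given here is the spread between lines.

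Homologous recombination copies the sister chromatid across a DNA break. The MRE11-RAD50-NBN complex, CtIP (Rbbp8) and EXO1 resect the broken end, BRCA1-BARD1, PALB2 and BRCA2 prepare the single strand for pairing, and RAD54L, RAD51B, RAD51C, XRCC2 and XRCC3 help it to invade and exchange strands. The Fanconi anaemia proteins open this route at crosslinked DNA by marking FANCD2 and FANCI with ubiquitin, mismatch repair corrects copying errors behind the replication fork, and the ATM-CHEK2 and ATR-CHEK1 kinase pairs hold the cell cycle meanwhile. A sister chromatid is present only after replication, and much of this machinery is made mainly in S and G2 phase of dividing cells.

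With trametinib, 35 of the 38 genes were lower at an adjusted p under 0.05, 1 was higher, and 2 were not called (limma on log2(normalized count + 1) with cell line as block, Benjamini-Hochberg over all genes tested). Across all 15888 genes tested, 25.6% were called lower and 27.3% higher. The genes that fell reached from the sensor kinases to the strand exchange factors, and the median log2 fold change of the 38 was −0.99, against 0.07 over all genes tested. Trp53bp1 was the gene that rose, and Wrn and Fancm were those not called. A fall of at least 2-fold was called for 17 of the 38, compared with 8.62% of all genes tested. In 23 of the 38 every trametinib library lay below every DMSO library, which held for 16.2% of all genes tested. Another 12 were called lower although the groups overlapped, and all 35 lower genes fell in 4 of 4 lines. In bulk RNA, fewer cells in S and G2 phase and less of these transcripts per cell cannot be told apart.

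**Figure D1:**
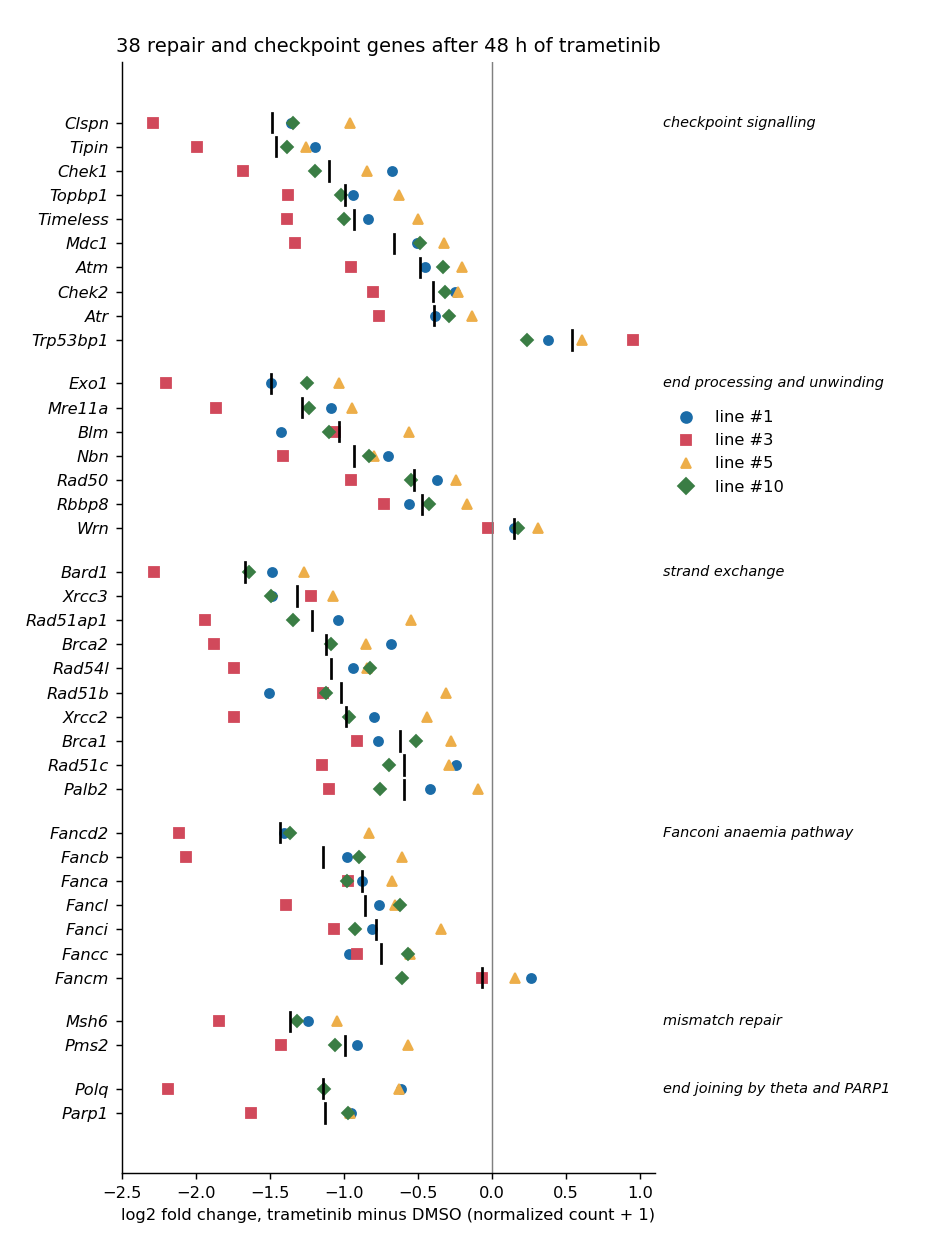
Log2 fold change of each of the 38 genes (trametinib minus DMSO, on log2(normalized count + 1)) in the 4 lines, grouped by role. Each symbol is 1 line and the black bar is the limma estimate. 35 genes lie left of 0 in 4 of 4 lines, with line #3 farthest left in 30 of them, while Trp53bp1 lies right of 0 in each line.

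The promoters of 3 of the strongest fallers and of the riser are shown because the genes moved in common and dividing cells switch many such genes on through E2F sites. The windows run from 250 bases before to 50 bases after a RefSeq transcription start (GRCm38.p6). Capitals mark a match to an E2F consensus (TTTCCCGC, TTTGGCGC, TTTCGCGC or TTTGCCGC, either strand).
Bard1 (chr1:71102923-71103222, minus strand): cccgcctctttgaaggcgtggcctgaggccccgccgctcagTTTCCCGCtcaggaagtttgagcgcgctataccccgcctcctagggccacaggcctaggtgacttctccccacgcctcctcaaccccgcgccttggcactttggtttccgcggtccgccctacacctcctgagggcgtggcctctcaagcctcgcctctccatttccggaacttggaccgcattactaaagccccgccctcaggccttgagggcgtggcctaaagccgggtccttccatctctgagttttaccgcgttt
Clspn (chr4:126556730-126557029, plus strand): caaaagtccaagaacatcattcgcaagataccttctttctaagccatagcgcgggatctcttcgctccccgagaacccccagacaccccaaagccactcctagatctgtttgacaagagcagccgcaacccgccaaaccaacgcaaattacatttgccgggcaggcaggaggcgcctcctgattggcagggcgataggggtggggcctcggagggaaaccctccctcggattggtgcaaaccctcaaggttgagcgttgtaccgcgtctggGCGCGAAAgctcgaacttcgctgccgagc
Msh6 (chr17:87974800-87975099, plus strand): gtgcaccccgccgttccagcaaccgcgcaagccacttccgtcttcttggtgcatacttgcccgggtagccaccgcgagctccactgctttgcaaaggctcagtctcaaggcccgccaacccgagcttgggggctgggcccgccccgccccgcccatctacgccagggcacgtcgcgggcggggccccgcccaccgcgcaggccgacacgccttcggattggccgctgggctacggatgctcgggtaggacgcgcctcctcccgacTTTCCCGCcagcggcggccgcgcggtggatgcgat
Trp53bp1 (chr2:121271358-121271657, minus strand): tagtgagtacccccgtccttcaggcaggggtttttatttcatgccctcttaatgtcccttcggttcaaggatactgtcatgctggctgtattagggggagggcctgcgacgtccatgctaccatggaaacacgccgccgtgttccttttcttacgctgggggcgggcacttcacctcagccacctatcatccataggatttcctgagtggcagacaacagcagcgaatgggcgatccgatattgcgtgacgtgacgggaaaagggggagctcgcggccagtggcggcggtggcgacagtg
Bard1 held TTTCCCGC at position −209 from the start, Clspn held GCGCGAAA at 22 and Msh6 held TTTCCCGC at 16, whereas the Trp53bp1 window held none of the 4 words. RefSeq windows were at hand for 30 of the 38 genes and were not used for Fancd2, Nbn, Xrcc2, Rbbp8, Exo1, Tipin, Rad50 and Wrn. An E2F word was found in 8 of the 30 (26.7%: Bard1, Clspn, Chek2, Brca2, Topbp1, Rad51c, Mdc1 and Msh6), against 4.42% of 10908 tested genes with a window and 2.26% of all 32851 windows. The median log2 fold change was −1.06 for the 8 genes with a word and −0.96 for the 22 without. Xrcc3, Mre11a and Rad51ap1, the deepest fallers with a window after the 3 shown, were among the 22 without. Of those 22, Chek1, Fanci, Fancl, Timeless and Fancc were read at a start inside the annotated 5′ end of the gene. These starts lay 407, 409, 949, 6001 and 65533 bases inside it, farther than the 250 bases that a window reaches back. The sequence at that end was therefore not read for them. CCAAT, read on both strands, was in 18 of the 30 (60% against 43.1% of tested genes with a window and 37.4% of all windows), and the cell cycle homology word TTTGAA, read likewise, was in 3 of them, Bard1, Rad51b and Polq (10% against 14.7% and 17.9%). A match describes letters in a window, and no binding was measured.

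Of the checkpoint signalling genes, 9 of 10 were lower and 1 was higher. Clspn (chr4:126556935-126593903, plus strand), the adaptor through which ATR activates CHEK1, had the lowest estimate in this group, close to Tipin, with which it changed places without line #1 or #3 and under quantile normalization. Its normalized counts were 3010.0, 2186, 3211 and 2291 with DMSO and 1174, 446, 1654 and 900.0 with trametinib in lines #1, #3, #5 and #10. Every treated library was below every control, and line #3 reached the lowest level. The log2 fold change was −1.49 ± 0.21 (limma SE, n = 4 lines, limma adjusted p = 0.0015). This SE, like each SE of a log2 fold change below, is moderated: limma draws the variance of a gene towards that of genes at a similar level. It is not the plain SE of the 4 line values. Tipin (−1.46 ± 0.15) and Timeless (−0.93 ± 0.15), which form the fork protection complex, fell with it, as did Chek1 (−1.10 ± 0.18), the kinase that CLSPN serves, and Topbp1 (−0.99 ± 0.13), the activator of ATR. For these 4 genes, too, no treated library reached a control. The sensor kinases moved less, with Atr at −0.40 ± 0.12 and Atm at −0.48 ± 0.14, and so did the ATM target Chek2 at −0.40 ± 0.13 and Mdc1, the scaffold at broken ends, at −0.66 ± 0.17. In these last 4 genes treated and control libraries overlapped. The calls of Atm, Atr and Chek2 were lost without line #1, those of Atr and Chek2 without line #10 and that of Chek2 without line #5, with limma adjusted p up to 0.084 for Atm, 0.16 for Atr and 0.11 for Chek2 over all alternatives.

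Trp53bp1 (chr2:121193281-121271407, minus strand) was the exception in this group and among the 38. It encodes 53BP1, which shields broken ends from resection and favours end joining over recombination. Its normalized counts were 2050.0, 2380.1, 2092 and 3299.7 with DMSO and 2660.0, 4600.2, 3188 and 3875 with trametinib in lines #1, #3, #5 and #10. It rose in 4 of 4 lines, most in line #3 (0.95) and least in line #10 (0.23), yet the control of line #10 lay above the treated libraries of lines #1 and #5. The log2 fold change was 0.54 ± 0.13 (limma adjusted p = 0.012), and without the block for cell line the adjusted p was 0.089. Its exons overlap those of Tubgcp4 on the opposite strand, and how the counting used strand is not given in the sources used here.

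Among the genes of end processing and unwinding, 6 of 7 were lower. Exo1 (chr1:175880581-175913489, plus strand), the exonuclease of long resection and of mismatch excision, had the deepest fall in this group. The 4 lines (#1, #3, #5, #10) held 1520.0, 1949, 1793 and 1930.3 with DMSO and 540.2, 424, 877 and 812 normalized counts with trametinib. The groups were apart, with the highest treated library in line #5. The log2 fold change was −1.49 ± 0.19 (limma adjusted p = 0.0012). Within the MRE11-RAD50-NBN complex the nuclease gene Mre11a fell by 1.28 ± 0.16 on the log2 scale, the signalling subunit Nbn by 0.94 ± 0.14 and the ATPase Rad50 by 0.53 ± 0.13. Only for Rad50 did the groups of this complex overlap, and its call was lost without line #10 (limma adjusted p = 0.05). Rbbp8, which starts resection, fell by 0.47 ± 0.11, and its call was lost without line #1, with limma adjusted p up to 0.11 over all alternatives.

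The RecQ helicases Blm and Wrn parted. Blm, which dissolves joint molecules with TOP3A, fell by 1.04 ± 0.15 on the log2 scale (limma adjusted p = 0.0017), and its treated library of line #5 (932) stood above the other treated libraries (516 to 537). Wrn (chr8:33234384-33385527, minus strand), the helicase lost in Werner syndrome, had normalized counts of 930.1, 954, 716 and 842 with DMSO and 1032, 934, 886 and 948 with trametinib in lines #1, #3, #5 and #10. The groups overlapped, line #3 was slightly lower after treatment and the other lines were higher. By limma the log2 fold change was 0.15 ± 0.10 (adjusted p = 0.25).

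All 10 strand exchange genes were lower, the only group of more than 2 genes without an exception. Bard1 (chr1:71027498-71103146, minus strand), the RING partner of BRCA1, fell most of all 38 genes. Its normalized counts were 1034, 1554, 1029 and 1162 with DMSO and 369, 319, 426 and 373 with trametinib in lines #1, #3, #5 and #10. The treated libraries lay close together (mean 372 ± 43.8 SD, n = 4) below widely spread controls (1195 ± 248). Its log2 fold change was −1.67 ± 0.17, a 3.18-fold fall (limma adjusted p = 0.00064). Brca1 itself fell by 0.62 ± 0.12 on the log2 scale, from 2511 ± 352 to 1658 ± 399.6 (SD), with overlapping groups, since treated line #5 (2169) exceeded control line #1 (2065).

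Downstream of BRCA1, the bridging protein gene Palb2 (chr7:122107262-122132985, minus strand) had the smallest estimated change in this group, close to Rad51c and Brca1, and the order of these 3 turned under some alternatives. In lines #1, #3, #5 and #10 the normalized counts were 572, 626, 667 and 460.0 with DMSO and 426, 292, 624 and 271 with trametinib. Line #5 hardly moved (−0.10), line #3 fell most (−1.10), and the groups overlapped. Palb2 changed by −0.59 ± 0.18 on the log2 scale (limma adjusted p = 0.029), and the call was lost without line #1, #3 or #10, with adjusted p up to 0.14 over all alternatives. Brca2, which acts at the resected strand next to PALB2, fell by 1.12 ± 0.20 on the log2 scale. Rad51ap1, a stimulator of strand pairing, fell by 1.22 ± 0.21 and Rad54l, the motor that drives strand invasion, by 1.09 ± 0.17. Of the 4 paralog genes in this group, Xrcc3 fell by 1.32 ± 0.14, Rad51b by 1.02 ± 0.25, Xrcc2 by 0.99 ± 0.21 and Rad51c by 0.60 ± 0.20. With DMSO the normalized count was 114 ± 28.6 (SD) for Rad51b and 210.4 ± 59.3 for Rad51c. The Rad51b call was lost without line #1 or #10 (limma adjusted p up to 0.06), and that of Rad51c without any 1 of the 4 lines (up to 0.18).

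In the Fanconi anaemia pathway 6 of 7 genes were lower. Fancd2 (chr6:113531682-113597017, plus strand), whose product is ubiquitinated at the crosslink, led the group. Fancd2 had normalized counts of 1765, 2341, 2574 and 2301 with DMSO and 666, 540.3, 1443 and 892 with trametinib in lines #1, #3, #5 and #10. No treated library reached a control, and line #5 kept the highest level. Its log2 fold change was −1.43 ± 0.19 (limma adjusted p = 0.0014). Fanci, the partner of FANCD2, fell by 0.79 ± 0.14 on the log2 scale with overlapping groups. Of the core complex that attaches ubiquitin, Fancb fell by 1.14 ± 0.23, Fanca by 0.88 ± 0.09, the ligase gene Fancl by 0.86 ± 0.17 and Fancc by 0.75 ± 0.13. Fanca differed most between control libraries (1590.5 in line #1 to 3769 in line #10), so that its groups overlapped although its 4 log2 fold changes ran only from −0.98 to −0.67.

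Fancm (chr12:65075603-65132058, plus strand), the translocase that anchors the core complex to DNA, did not follow. Its normalized counts were 852, 1110.5, 1284 and 1289 with DMSO and 1020.3, 1057, 1427 and 845 with trametinib in lines #1, #3, #5 and #10. Lines #1 and #5 were higher after treatment, line #10 was lower, line #3 hardly differed, and the groups overlapped. The log2 fold change was −0.07 ± 0.16 (limma adjusted p = 0.74), and its sign turned without line #10 (0.11) and with libraries rescaled to equal totals (0.06).

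Both mismatch repair genes and both genes of the remaining group were lower with groups that did not overlap. Msh6 (chr17:87975062-87990892, plus strand), which recognises base mismatches, had normalized counts of 4833, 5302, 4381 and 6015 with DMSO and 2038, 1475, 2115 and 2410.0 with trametinib in lines #1, #3, #5 and #10. All treated libraries were thus well below the lowest control, by a log2 fold change of −1.36 ± 0.14 (limma adjusted p = 0.00057, the lowest of the 38). Pms2 (chr5:143909964-143933968, plus strand), an endonuclease of mismatch repair, had 1176, 1437, 1231 and 1134 with DMSO and 625, 535, 831 and 543 with trametinib in the same order of lines. Its fall of 0.99 ± 0.15 on the log2 scale (limma adjusted p = 0.002) was least in line #5.

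Polq (chr16:37011786-37095417, plus strand) encodes polymerase theta, which joins resected ends at short homologies. Its normalized counts were 1265, 1159, 1297 and 1424 with DMSO and 825, 253, 839 and 648 with trametinib in lines #1, #3, #5 and #10. Line #3 stood far below the other treated lines, and the log2 fold change was −1.14 ± 0.26 (limma adjusted p = 0.01), with the largest SE of the 38. Parp1 (chr1:180568924-180601254, plus strand), the sensor of strand breaks that recruits this route, had 6686, 7507, 7722 and 7911 with DMSO and 3458, 2432, 3968 and 4026 with trametinib in that order. It fell by 1.13 ± 0.13 on the log2 scale (limma adjusted p = 0.00092), with line #3 again lowest.

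**Figure D2:**
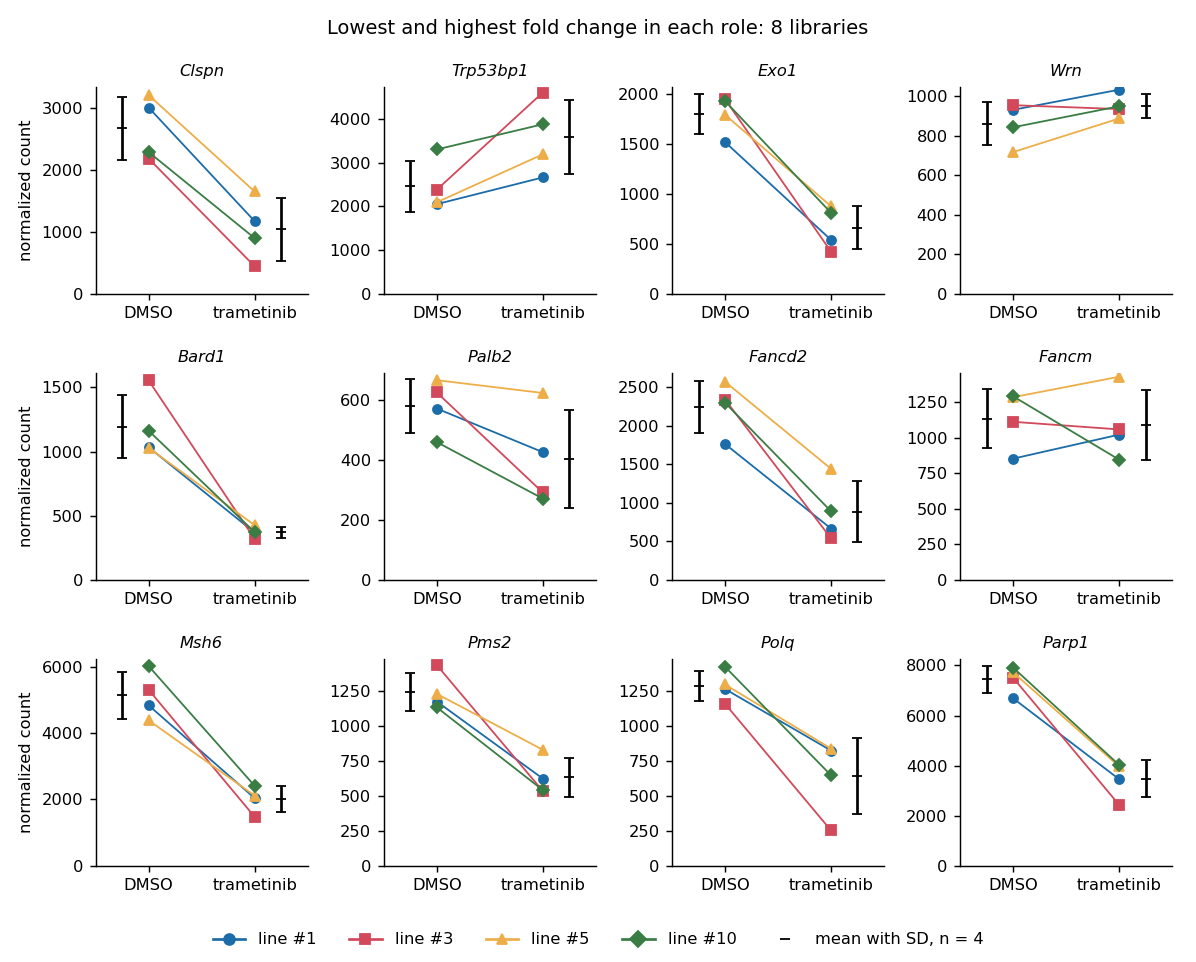
Normalized counts in all 8 libraries for the genes with the lowest and the highest log2 fold change in each role group. Lines join the DMSO and trametinib libraries of 1 cell line, black marks give the mean with SD (n = 4), and each vertical axis starts at 0. Clspn, Exo1, Bard1, Fancd2, Msh6, Pms2, Polq and Parp1 fall without overlap, Palb2 falls with overlap, Trp53bp1 rises, and Wrn and Fancm cross.

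Partners that work in 1 complex or step, and the RecQ helicases Blm and Wrn, paired by family, were set against each other. The measure was the difference of their log2 fold changes within each line. In 13 of 15 pairs the difference had the same sign in 4 of 4 lines. How often other pairs of genes do so was not counted, so this count has no share to be read against. The pairs were chosen with earlier results known, and some genes stand in more than 1 pair. Some differences were close to 0, such as Fancm minus Fancl in line #10 (0.0136) and Xrcc3 minus Rad51c in line #3 (−0.075). Bard1 fell more than Brca1 by 1.05 ± 0.27 (SD, n = 4 lines), Mre11a more than Rad50 by 0.75 ± 0.11, Fancd2 more than Fanci by 0.64 ± 0.28 and Chek1 more than Atr by 0.70 ± 0.29. Tipin fell more than Timeless by 0.53 ± 0.19. In the other direction, Palb2 fell less than Brca2 by 0.53 ± 0.28. Chek2 and Atm differed by 0.08 ± 0.11 with mixed signs. Rad51b minus Rad51c was −0.42 ± 0.59, also with mixed signs and with the widest spread of the 15 pairs. An exact 2-sided sign-flip test over 4 lines cannot go below p = 0.125, which those 13 pairs reached (0.144 after adjustment over the 15), so that no pair could pass 0.05.

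**Figure D3:**
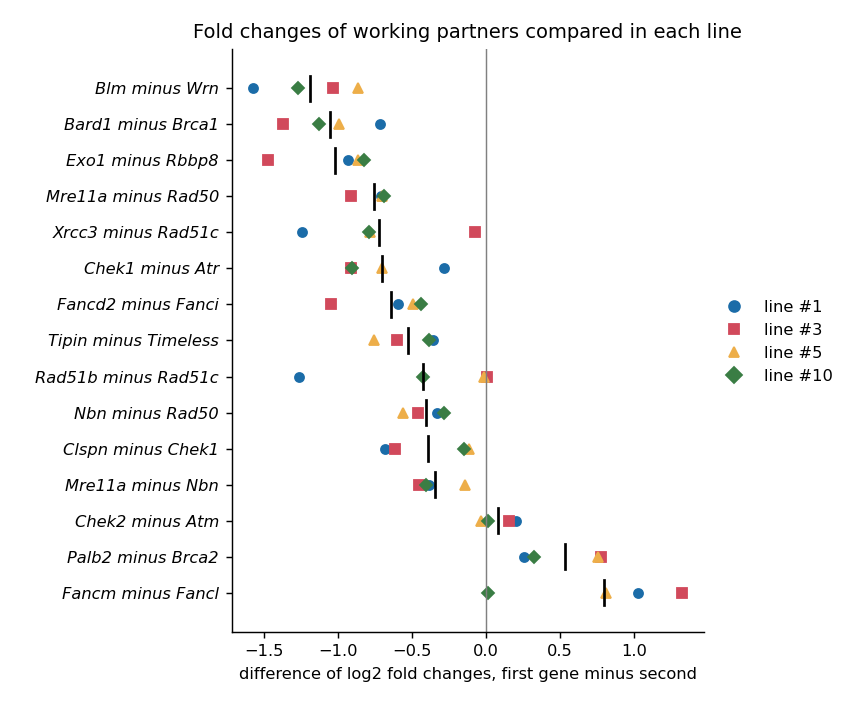
Difference between the log2 fold changes of 2 paired genes (first minus second) in each of the 4 lines, with the mean as a black bar. Blm and Wrn are paired by family, the others by complex or step. Values left of 0 mean that the first gene fell more. Blm minus Wrn and Bard1 minus Brca1 lie farthest left, and Fancm minus Fancl farthest right.

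The lines differed in the size of the fall. The median log2 fold change of the 38 genes was −0.82 in line #1, −1.38 in line #3, −0.56 in line #5 and −0.97 in line #10 (mean −0.94 ± 0.34, SD), while the median over all genes tested stayed between 0.03 and 0.06. Of the 35 lower genes, 30 (85.7%) fell most in line #3, compared with 67.9% of the 4075 genes called lower overall. The other end was line #5, where 26 of the 35 (74.3%) fell least, compared with 27.6% of all lower genes. For these genes the highest DMSO library exceeded the lowest by 1.13-fold (Timeless) to 2.37-fold (Fanca), with a median of 1.41-fold.

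Markers of dividing cells moved with these genes. All 30 S-phase markers and all 30 G2/M markers on 2 separate lists were lower, and in none of them did the groups overlap. The S-phase markers ranged from E2f8 (−2.17 ± 0.17) to E2f1 (−0.76 ± 0.10), and the G2/M markers from Kif23 (−1.82 ± 0.19) to Nusap1 (−0.92 ± 0.23), which was not called without line #1 (limma adjusted p up to 0.054 over all alternatives). The summed normalized count of the S-phase markers was 146980 to 173670 with DMSO and 34248 to 79486 with trametinib, and that of the G2/M markers 189910 to 211460 and 38940 to 120450. No marker on either list was near 0. In lines #1, #3, #5 and #10 the S-phase median was −1.35, −2.27, −1.09 and −1.32 and the G2/M median −1.11, −2.18, −0.76 and −1.19, so line #3 fell most and line #5 least here too. Most of the 38 fell less than these markers. Of the 35 lower genes, 25 fell less than the S-phase median in every line and 18 less than the G2/M median in every line. Bard1 alone fell more than the S-phase median in 4 of 4 lines, though its difference from that median was only −0.0097 in line #3. For Clspn the difference was −0.0073, −0.0193, 0.133 and −0.0277 in lines #1, #3, #5 and #10, so Bard1 was barely set apart. Clspn, Exo1 and Bard1 fell more than the G2/M median in 4 of 4, with Exo1 differing by only −0.0233 in line #3. The part of these markers in the falls was not tested.

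**Figure D4:**
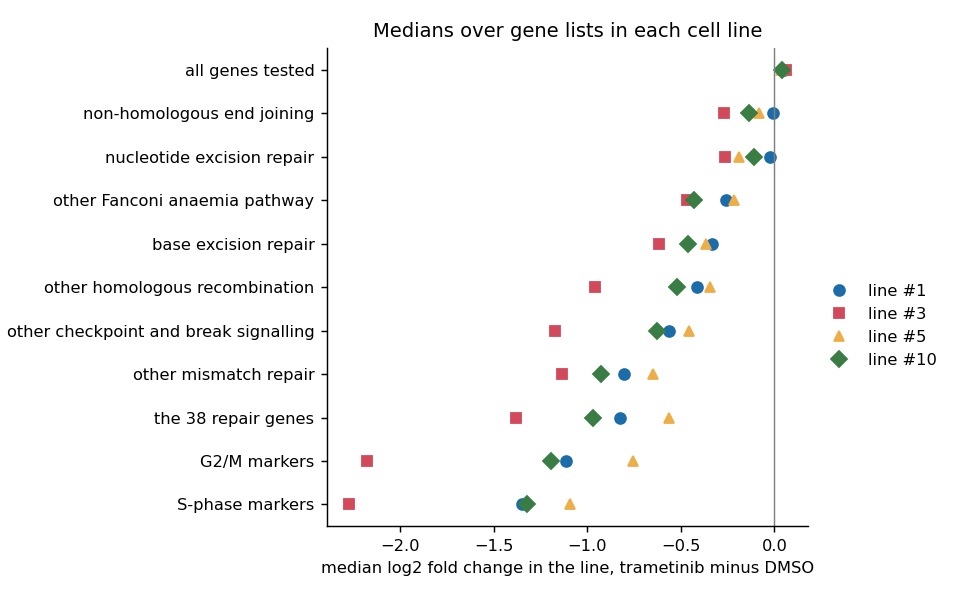
Median log2 fold change (trametinib minus DMSO) over each gene list in the 4 lines. The 38 repair and checkpoint genes lie to the right of the S-phase and G2/M markers in each line, and to the left of the other repair lists except other mismatch repair in line #5 (−0.65 against −0.56), and all genes tested lie near 0.

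The remaining genes of the same pathways were taken from lists of their own. Among other homologous recombination genes, 20 of 34 tested were lower and 3 higher (median −0.56), with Rmi2, a subunit of the BLM complex, lowest (−1.97 ± 0.19, from 199 to 375 with DMSO to 37.3 to 93.1 with trametinib) and the helicase Fbxo18 highest (0.88 ± 0.09). The meiotic Dmc1 was at or near 0 in all libraries. Of other Fanconi genes, 9 of 17 were lower and 1 was higher (median −0.34). They ranged from the FANCD2 deubiquitinase Usp1 (−1.41 ± 0.18) to the core subunit Fancg (0.53 ± 0.13), which rose from 267 to 402 with DMSO to 426 to 523 with trametinib but was not called without line #1 or line #5 (limma adjusted p up to 0.063 over all alternatives). Other mismatch repair genes, with the clamp loader and polymerase delta, were lower in 14 of 18 (median −0.82), from Pold2 (−1.86 ± 0.24) to Mlh3 (−0.01 ± 0.11, not called). Other checkpoint and break signalling genes were lower in 18 of 25 with none higher (median −0.72), from the break-marking histone H2afx (−1.53 ± 0.15) to Rad9b (0.35 ± 0.20, not called).

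Repair routes outside these pathways were listed as well. In non-homologous end joining, which works without a sister chromatid, 3 of 13 genes were lower and 3 higher (23.1% each, median −0.09). These shares were near those of all genes tested, 25.6% lower and 27.3% higher, so the list as a whole did not stand out. Xrcc6, which encodes KU70, fell by 0.60 ± 0.12 on the log2 scale, while the nuclease Artemis (Dclre1c, 0.57 ± 0.13), Paxx and the ligase Lig4 (0.33 ± 0.11) rose. Without line #1 or line #10 only 1 gene of this list was lower and 1 higher, and without line #5 only 1 was lower. The calls of Lig4 (limma adjusted p = 0.036, up to 0.15 over all alternatives) and Paxx (0.041, up to 0.14) were among those lost. Base excision repair had 12 lower and 2 higher of 20 (median −0.40), from the uracil glycosylase Ung (−1.76 ± 0.22) to Neil2 (0.94 ± 0.23), whose call was lost without line #10 (limma adjusted p up to 0.099 over all alternatives). Nucleotide excision repair had 7 lower and 4 higher of 23 (median −0.13), from Ercc8 (−0.76 ± 0.13) to Uvssa (0.91 ± 0.10), both of its transcription-coupled branch. Without line #5 the count of lower genes on this list was 4.

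**Figure D5:**
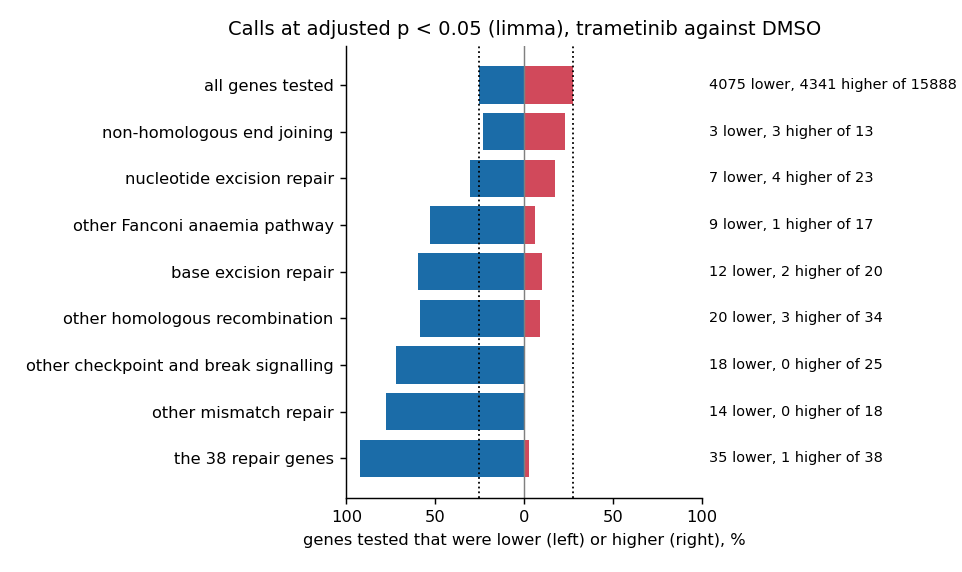
Share of each list called lower (bars to the left) or higher (bars to the right) at a limma adjusted p under 0.05, in percent of the genes tested. Dotted lines mark the shares over all 15888 genes tested, 25.6% lower and 27.3% higher. The 38 genes reach 92.1% lower, whereas non-homologous end joining reaches 23.1% lower and 23.1% higher, near the dotted lines.

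Levels of the 38 genes were compared with each other per length, as the mean DMSO normalized count per kb of the longest coding transcript. On that scale Parp1 (1925 per kb), Topbp1 (1653), Msh6 (1207) and Tipin (1100.0) were the most abundant of the 38 and Rad51b (52.0) and Rad51c (53.4) the least. Brca2 (136) and Wrn (137) were near the lower end, below Brca1 (382) and Bard1 (211). Exons of 18 of the 38 overlap another annotated gene (Atr, Timeless, Trp53bp1, Mre11a, Rbbp8, Palb2, Brca2, Xrcc3, Rad54l, Fanca, Fancc, Fancl, Fancm, Fancd2, Fanci, Msh6, Pms2 and Parp1), and their counts are uncertain to that extent.

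The library totals were 30680091 to 36385719 normalized counts, from about 29300000 to 45900000 reads as estimated from the step of 1 read. Of 10 genes of MAPK output 9 were lower, among them Etv4 (−5.92 ± 0.39) and Dusp6 (−2.51 ± 0.14), while Epha4 (0.87 ± 0.31) was not called. Trp53 was 275 to 355 with DMSO and 196 to 278 with trametinib, but counts per gene do not show the deleted exons and so check nothing about them. The epithelial markers Krt8, Krt18, Krt19 and Cdh1 had 17761 or more normalized counts in every library, whereas Epcam was listed at 0 in 6 of 8 libraries. On this list Sox9 (−1.49 ± 0.36) was lowest and Cldn4 (4.61 ± 0.55) highest. The summed level of 10 acinar markers was 49.0 to 280.8 with DMSO and 40.5 to 160.1 with trametinib, with Ptf1a, Cpa1, Pnlip, Amy2a5 and Cel below a mean of 1. With DMSO against trametinib, the summed level ran from 96.9 to 369 against 439.95 to 1259.8 for fibroblast markers, from 1152 to 2682 against 1379.8 to 3812 for immune markers and from 84.9 to 119.9 against 175 to 1844 for endothelial markers. The epithelial sum was 221230 to 348820 against 113160 to 222090. None of these sums is divided by length. The lowest and highest log2 fold changes were those of Cela1 (−0.73 ± 0.21, called lower but not without line #1, #5 or #10) and Bhlha15 (−0.04 ± 0.43, not called) on the acinar list. They were those of Thy1 (−0.09 ± 0.36, not called) and Col1a1 (3.60 ± 0.42, higher) on the fibroblast list, and of Laptm5 (−0.44 ± 0.45, not called) and Csf1r (2.83 ± 0.31, higher) on the immune list. Endothelial markers ranged from Pecam1 (0.13 ± 0.44, not called) to Tek (3.77 ± 0.52, higher). Their part in the results was not tested.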

How the data were processed

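Normalized counts per gene (signal, not whole reads) were deposited as 1 table for the 8 polyA libraries. The submitters' processing notes name CASAVA 2.17, Salmon 0.12, DESeq2 1.18 and mm10, and which step each did is not given in the sources used here. Within 20 steps of 1 read, 57.3 to 67.9% of values were whole multiples (tolerance 0.05 steps), so whole reads were not recovered and no count test was run. Values were tested with limma 3.58.1 (R 4.3.3) on log2(value + 1), with eBayes trend, a filter at a mean of 10, cell line as block and Benjamini-Hochberg adjustment. On the log2 scale, low genes are understated. Replicate numbers name cell lines, and libraries of 1 line deviated together (correlations 0.631 to 0.724). Libraries were 1 per line and treatment, so p-values and SEs rest on the spread between lines, with variances moderated across genes by eBayes. The floor of 3 reads was 2.325 to 3.724 normalized counts, which covers counting error only. On simulated data with the same layout (15332 genes), 35 of 46 genes changed by −2 and 23 of 47 changed by −1 (log2) were recovered. There 15139 genes were given no change, whereas in the real data 4075 genes were called lower and 4341 higher of 15888. The adjustment for many tests was therefore stricter in the simulation, and its recovery does not give the share of changes missed here.

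The 38 genes and all lists, roles and pairs were chosen with earlier results of these data known. All 38 are named, and some items outside the 38 are not reported here. Values in each library are given for the lowest and highest gene of each role group, for genes called higher and for genes whose lines differ in direction, and of other lists the lowest and highest gene are named, besides partners and a few genes picked after their values were seen (Lig4, Paxx, Dusp6). Coordinates, lengths and exon overlaps are from GENCODE M21 (GRCm38). Alternatives were other pseudocounts (0.1, 5), scalings and filters (none, 50), robust eBayes, no block, and leaving out each line.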

Additional observations from a re-analysis of the deposited data

Results flagged for a closer look

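In 114 groups of 4 values (the DMSO counts, trametinib counts and log2 fold changes of the 38 genes), 5 held a value that stood apart by Dixon's gap test. Chance alone gives about 5.7. Line #3 fell apart from the other lines in Chek2 (−0.80 against −0.32 to −0.23), Rad54l (−1.74 against −0.94 to −0.83) and Parp1 (−1.63 against −0.97 to −0.95). The trametinib library of line #5 stood above the others for Blm (932.1 against 515.6 to 536.9), and the DMSO library of line #10 for Rad51c (298.8 against 172.0 to 186.2).

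The lines moved in opposite directions for Wrn, with log2 fold changes of 0.15, −0.0301, 0.31 and 0.17 in lines #1, #3, #5 and #10. They did so for Fancm as well, with 0.26, −0.0713, 0.15 and −0.61. With 1 library per line and treatment, these differences between lines were not tested.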

How the results depend on the processing

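Under 13 alternatives 26 of the 38 genes kept their call throughout, 24 of the 36 called and the uncalled Wrn and Fancm. The count of lower genes, 35, was 30 with libraries rescaled to equal totals, 32 with no filter, 26 with no replicate block (without the pairing by cell line) and 35 in the other settings with all lines. Leaving out 1 line gave 28 to 33 lower genes, and moved the mean of the line medians from −0.94 to between −1.06 and −0.79. Without the block 10 calls were lost (Atm, Atr, Chek2, Mdc1, Trp53bp1, Rbbp8, Palb2, Rad51c, Fanca and Fanci), so that the count of higher genes was 0 by limma (1 at an unadjusted p under 0.05). The cause was not tested. Fancm turned from −0.07 to 0.0606 with equal totals, and ran from −0.18 to 0.11 with 1 line left out. Equal totals moved the median of all genes tested from 0.07 to 0.20 and their calls from 4075 lower and 4341 higher to 3285 and 5333, and no block left 2347 and 2205. Without the block the other lists fell to 4 lower (Fanconi), 11 (checkpoint), 0 (non-homologous end joining, with none higher, against 1 lower and 2 higher at an unadjusted p) and 4 (nucleotide excision repair). Among the genes named from other lists, H2afx, Xrcc6, Dclre1c, Sox9 and Csf1r lost their calls in that setting alone. Their limma adjusted p there was 0.087, 0.066, 0.15, 0.17 and 0.089.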
